A study of Mus musculus with 6 samples.

Results

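The cholesterol synthesis, SREBP and LXR genes are 33 genes chosen by name, 19 enzymes from acetoacetyl-CoA to cholesterol and 14 genes that sense, regulate, store or move sterols. They are 33 of the 23462 genes with a matched probe on 6 microarrays of BV2 cells, an immortalized mouse microglial line. All 6 samples had received LPS (lipopolysaccharide, a bacterial membrane component that triggers an inflammatory response), so nothing here shows the effect of LPS itself. The 3 control arrays are labelled as without PGC-1α overexpression and the 3 others as PGC-1alpha overexpression. Per the study's methods, overexpression used a lentiviral vector with a Ubi promoter that carries the PGC-1α coding fragment, with puromycin selection of the infected cells and a negative control lentivirus, and those methods do not name the arrays. PGC-1α is a transcriptional coactivator of nuclear receptors. The arrays are 3 samples per group, and nothing says that they came from separate cultures, so the p-values measure only the spread between these samples.

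Cholesterol is built from acetyl-CoA through mevalonate, isoprenoid diphosphates, squalene and lanosterol. When sterols in the endoplasmic reticulum are scarce, SCAP escorts the SREBP transcription factors to the Golgi, where they are cleaved and released to switch on the synthesis enzymes, and INSIG proteins hold SCAP back when sterols are plentiful. LXRα and LXRβ, the products of Nr1h3 and Nr1h2, are nuclear receptors that bind oxysterols and switch on export genes such as Abca1 and Abcg1, the E3 ligase gene Mylip, and Srebf1. Microglia and macrophages rely on this export when they take up lipid debris.

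Of the 33 genes, 32 had a matched probe, 54 probes in all, and 30 could be tested. Acat2, the acetoacetyl-CoA thiolase gene, had no matched probe. Levels are log2 intensities above the 75th percentile of their own array (the scaling used throughout unless quantile is named), a difference is the mean of the overexpression arrays minus that of the control arrays on this scale with its standard error, and a gene is called when its limma p-value, adjusted over all 17062 tested genes, is under 0.05. Levels of different probes are not comparable with each other. The brightest tested probe stands for its gene.

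The labels were checked before the members. The 75th percentile of the intensity was 1617.0 to 1892.7 on the control arrays, and the arrays of the overexpression group were all dimmer, at 855.8 to 1268.1. Ppargc1a, which encodes PGC-1α, had 2 probes near the background that did not pass the filter, with differences of 1.14 and 0.26. Whether either probe lies within the fragment in the vector is not known here, so the array gives no firm check of the overexpression. Of 7 microglia and macrophage markers, Cx3cr1 was not well above background on any array and 6 were tested. Their summed level ran from 6.18 to 6.26 on the control arrays and from 6.77 to 7.01 on the overexpression arrays, 4 were called higher, and none were called after quantile normalization. Probes of Snap25 (a neuronal marker) and Col1a1 (a fibroblast marker) were also well above background on all 6 arrays, while another Snap25 probe was so on none. Among the 4 fibroblast markers 3 were called higher and 1 lower, 3 were still called after quantile normalization, and their summed level was 3.94 to 4.05 against 4.73 to 5.0. Most of that sum came from the brightest Col1a1 probe, at 3.49, 3.58 and 3.52 against 4.23, 4.46 and 4.21. After quantile normalization this probe differed by 0.22 and was not called (adjusted p = 0.128 over all probes). Dimmer Col1a1 probes were called higher at both scalings. Of 3 tested astrocyte markers 2 were called higher, and 2 after quantile normalization, with a summed level of -2.05 to -1.85 against -1.30 to -0.94. Of 3 tested neuron markers 2 were called higher, and 1 after quantile normalization, with a summed level of 4.46 to 4.80 against 5.14 to 5.6. That sum is in effect the level of the tested Snap25 probe alone, 4.46 to 4.80 against 5.14 to 5.59. Genes of its brightness had a median difference of 0.55. After quantile normalization this probe differed by 0.08 (adjusted p = 0.592 over all probes). No oligodendrocyte marker of 4 was called at either scaling at the probe that stands for it. Dimmer probes of Mbp were called in opposite directions. One was lower at both scalings, at -0.58 (adjusted p = 0.0116 over all probes) and -0.74 after quantile normalization (adjusted p = 0.00257). Another was higher at 0.47 (adjusted p = 0.0292), but not after quantile normalization (adjusted p = 0.0722). Of 2 tested endothelial markers 1 was called higher and 1 lower. The part of these markers in the results below was not tested, and in bulk RNA fewer cells of a kind cannot be told apart from less RNA per cell.

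The stretches of 250 bases before the transcription start were taken from RefSeq (GRCm38.p6), which held 37 windows for 28 of the 33 genes. They are shown for a classic SREBP target, 2 LXR targets that fell on these arrays, and Srebf1, itself an LXR target. Capitals mark the sterol regulatory element TCACNCCAC, the palindromic E-box CACGTG, and a DR4-like repeat, here GGTNA, 5 bases of any kind, and GGTNA, each searched on both strands with no overlap between the marked motifs.
Hmgcs1 (chr13:119690101-119690350, plus strand): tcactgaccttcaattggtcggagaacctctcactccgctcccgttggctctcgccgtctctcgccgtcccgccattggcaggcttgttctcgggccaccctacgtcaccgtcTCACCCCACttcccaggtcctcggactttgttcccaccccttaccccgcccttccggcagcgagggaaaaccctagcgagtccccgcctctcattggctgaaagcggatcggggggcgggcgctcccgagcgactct
Abca1 (chr4:53159896-53160145, minus strand): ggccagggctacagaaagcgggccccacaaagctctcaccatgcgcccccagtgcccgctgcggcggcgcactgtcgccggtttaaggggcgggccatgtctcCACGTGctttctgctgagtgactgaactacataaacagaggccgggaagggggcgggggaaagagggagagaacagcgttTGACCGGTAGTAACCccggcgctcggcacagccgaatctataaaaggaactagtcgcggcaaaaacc
Mylip (chr13:45389492-45389741, plus strand): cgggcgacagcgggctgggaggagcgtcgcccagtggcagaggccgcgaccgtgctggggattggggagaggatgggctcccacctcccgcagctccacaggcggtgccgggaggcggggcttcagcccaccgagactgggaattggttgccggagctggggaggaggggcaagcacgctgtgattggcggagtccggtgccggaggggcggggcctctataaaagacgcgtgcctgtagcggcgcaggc
Srebf1 (chr11:60210472-60210721, minus strand): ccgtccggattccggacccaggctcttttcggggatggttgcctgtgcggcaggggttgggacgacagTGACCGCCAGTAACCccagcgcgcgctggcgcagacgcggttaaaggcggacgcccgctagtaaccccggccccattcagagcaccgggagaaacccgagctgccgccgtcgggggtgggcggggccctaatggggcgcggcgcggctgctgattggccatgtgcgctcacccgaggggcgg
In these windows the sterol regulatory element was found in Hmgcs1 alone of the members and in 1.05% of all 32851 windows. The DR4-like repeat was found before Abca1 and before the shown start of Srebf1, and in 0.621% of all windows. The window of Mylip held none of these 3 motifs, and neither did the windows at the other starts of Srebf1, which are not shown. The E-box was found in 6 members (Abca1, Dhcr7, Hsd17b7, Insig1, Sc5d and Scap) and in 6.02% of all windows. A CCAAT box, which is not marked and is the usual partner site of SREBPs, lay in 62.2% of the 37 member windows and in 33.8% of all windows. A match of letters is not a bound site.

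Of the 30 tested members, 11 (36.7%) were called, 8 higher and 3 lower, where 56.5% of all tested genes were called, 36.9% higher and 19.6% lower. The share called among the members was thus below that of all genes, and that difference was not tested. After quantile normalization, which forces every array to the same distribution of intensities, 9 members were called, 5 higher and 4 lower, where 45.4% of all genes were called, 23.1% higher and 22.3% lower. Both scalings called 8 of these members in the same direction, namely Lss, Nsdhl, Hsd17b7, Insig2 and Nr1h3 higher and Sc5d, Abca1 and Mylip lower. The arrays of the 2 groups did not overlap in 15 of the 28 members with a value on every array, where 65.5% of all genes with such values did not overlap. The largest differences were in the LXR group, with Nr1h3 at 1.63, Abca1 at -1.40 and Mylip at -2.30, while no synthesis enzyme exceeded 0.70 in size at the probe that stands for it.

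**Figure D1:**
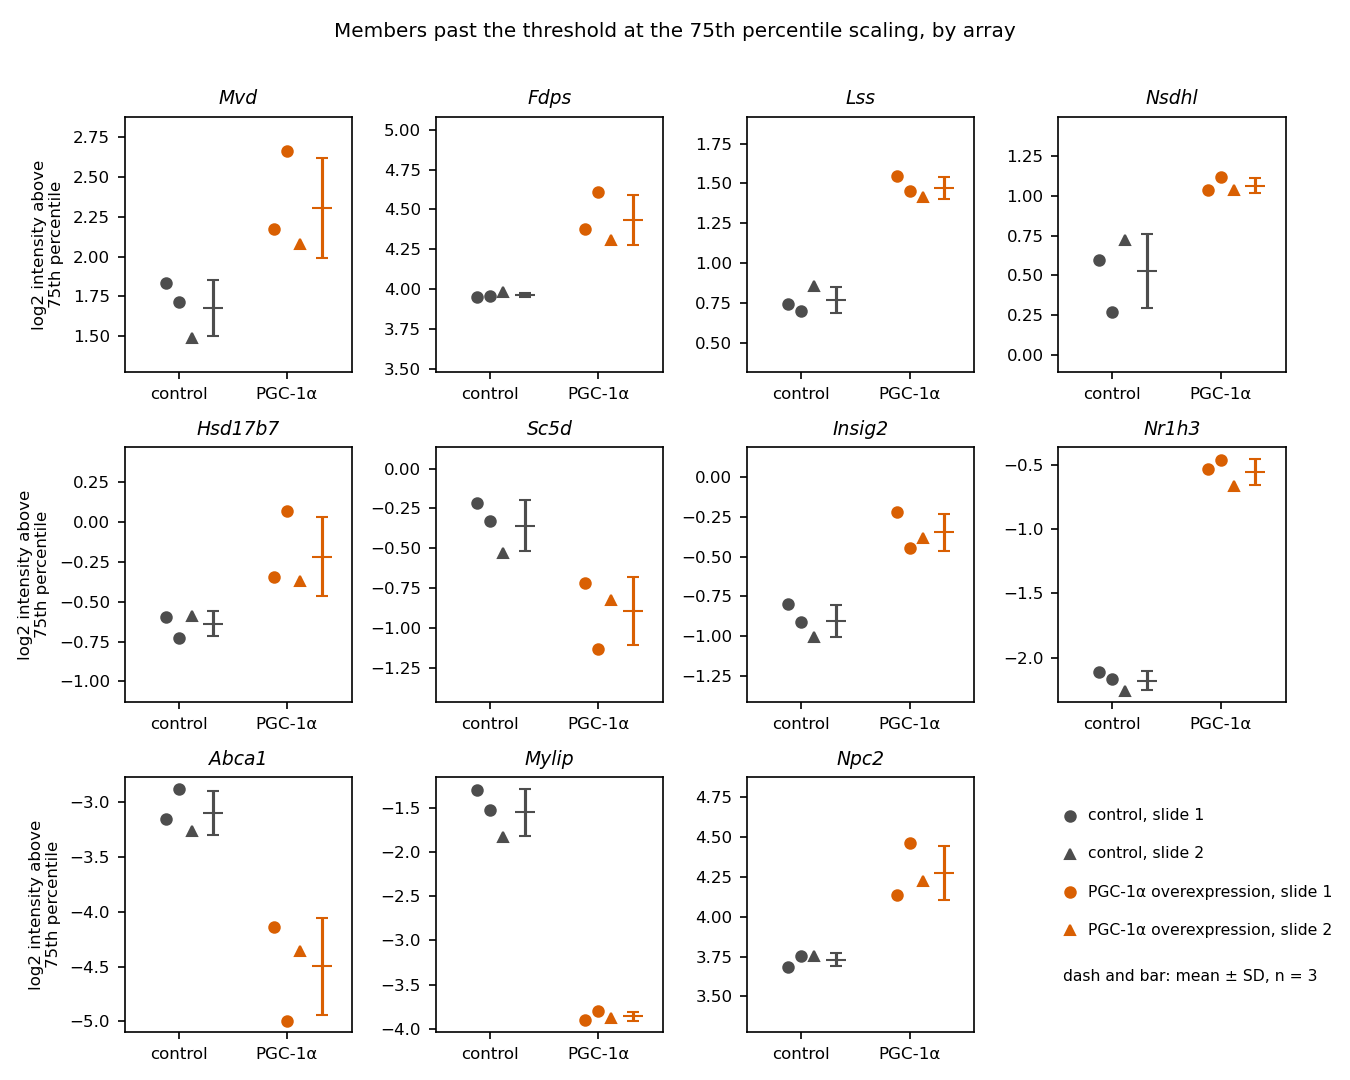
Log2 intensity above the 75th percentile of the array (y axis, a range of its own in each panel) for the 11 members called at that scaling, in 3 control (grey) and 3 PGC-1α overexpression (orange) arrays, with circles for slide 1, triangles for slide 2, and a dash with a bar for the mean ± SD (n = 3). The groups are separate in every panel, with the smallest difference, 0.42, in Hsd17b7 and the largest in size, -2.30, in Mylip, although Fdps, Mvd and Npc2 lose their calls after quantile normalization.

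Of the 5 tested enzymes that make mevalonate and turn it into isopentenyl units, 1 was called higher and 4 were not called. Hmgcs1, the cytosolic HMG-CoA synthase, lay at 2.05, 2.09 and 2.01 on the control arrays and at 2.28, 2.16 and 2.33 on the overexpression arrays. The groups did not overlap, but the difference of 0.20 ± 0.12 was not called (adjusted p = 0.167) and became -0.07 after quantile normalization. Mvk, mevalonate kinase, had a difference of -0.27 ± 0.23 (adjusted p = 0.344). A second, dimmer Mvk probe gave -0.40 with an adjusted p of 0.0317 over all 24558 tested probes. Pmvk, phosphomevalonate kinase, lacked a value on control array 2 and differed by 0.16 ± 0.14 (adjusted p = 0.36). Idi1, the isopentenyl diphosphate isomerase, was spread widely within both groups. It lay at -0.05, 0.34 and 0.75 on the control arrays and at 0.53, 0.04 and 0.86 on the overexpression arrays. It differed by 0.13 ± 0.26 (adjusted p = 0.688).

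Mvd, the decarboxylase that makes isopentenyl diphosphate, was the enzyme of these steps that was called. It lay at 1.84, 1.71 and 1.49 on the control arrays and at 2.17, 2.66 and 2.08 on the overexpression arrays. Every overexpression value was above every control value, and the highest came from replicate 2. The difference was 0.62 ± 0.18 (1.54-fold, adjusted p = 0.0199). After quantile normalization it was 0.38 and no longer passed (adjusted p = 0.0822), and without control replicate 3 it did not pass either.

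At the isoprenoid branch, Fdps makes farnesyl diphosphate for both squalene and protein prenylation. It was very even on the control arrays, at 3.95, 3.96 and 3.98, and lay at 4.38, 4.61 and 4.31 on the overexpression arrays. The difference was 0.47 ± 0.13 (adjusted p = 0.0152), but all tested genes of comparable brightness had a median difference of 0.55. After quantile normalization Fdps stood at -0.13 (adjusted p = 0.324). Ggps1, which makes geranylgeranyl diphosphate, differed by 0.15 ± 0.20 (adjusted p = 0.546), and its 5 probes ran from -0.59 to 0.52 with none called.

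The squalene to cholesterol steps held 4 called enzymes, and these kept their calls and directions after quantile normalization. Lss, lanosterol synthase, closes the sterol rings. It lay at 0.74, 0.70 and 0.86 on the control arrays and at 1.55, 1.45 and 1.41 on the overexpression arrays. The gap between the groups was wider than the spread within either, and the difference was 0.70 ± 0.12 (1.63-fold, adjusted p = 0.00229) and 0.59 after quantile normalization (adjusted p = 0.00425). The difference was 0.78 on slide 1 and 0.55 on slide 2, and Lss was called in all 21 alternatives that gave a test at the adjusted p of 0.05 alone (counts of 21 leave out a further fold threshold). Its 3 probes did not act alike, since a second probe gave 1.01 (adjusted p = 0.00248 over all probes) and the third -0.09 (adjusted p = 0.575).

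Nsdhl and Hsd17b7 act one after the other in removing the C4 methyl groups of the sterol. Nsdhl lay at 0.59, 0.27 and 0.72 on the control arrays and at 1.04, 1.12 and 1.04 on the overexpression arrays. It rose by 0.53 ± 0.15 (1.45-fold, adjusted p = 0.0153; 0.47 and adjusted p = 0.0295 after quantile normalization), and control replicate 2 was the lowest array. Without that replicate Nsdhl did not pass, nor did it with the median of the array or with normexp and quantile normalization. It was called in 18 of 21 alternatives, and its difference was 0.64 on slide 1 and 0.32 on slide 2. Hsd17b7 lay at -0.60, -0.73 and -0.59 against -0.35, 0.07 and -0.37, so that replicate 2 stood above the other overexpression arrays. Its difference of 0.42 ± 0.15 passed narrowly (adjusted p = 0.0428, and 0.041 after quantile normalization), and it was called in 12 of 21 alternatives. On slide 1 it was 0.52 and on slide 2 it was 0.22. A second Hsd17b7 probe pointed the same way.

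Sc5d, the desaturase that places the Δ5 double bond of the sterol, was the only synthesis enzyme called lower at the probe that stands for its gene. It lay at -0.22, -0.33 and -0.53 on the control arrays and at -0.72, -1.13 and -0.82 on the overexpression arrays. The groups did not overlap, and the difference was -0.53 ± 0.15 (0.69-fold, adjusted p = 0.0193), or -0.50 after quantile normalization (adjusted p = 0.0256). It did not pass without control replicate 1 or without control replicate 2, and was -0.65 on slide 1 and -0.29 on slide 2.

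The remaining enzymes of these steps were not called. Fdft1, squalene synthase, differed by 0.35 ± 0.14 (adjusted p = 0.0591) and by -0.14 after quantile normalization. With the slide as a block it was called higher (adjusted p = 0.0451), as it was in 3 of 21 alternatives. Sqle, the squalene epoxidase, differed by 0.15 ± 0.16 (adjusted p = 0.463). Cyp51, which removes the 14α methyl group and lacked a value on control array 1, differed by 0.34 ± 0.16 (adjusted p = 0.106). A second, dimmer Cyp51 probe with values on all arrays also differed by 0.34 (adjusted p = 0.0632 over all probes). Cyp51 was called higher in 2 of 21 alternatives, the median of the tested genes set to 0 and the mean of the probes. These 3 genes all lay above 0 at the 75th percentile scaling, as did the median of all genes, 0.23. Tm7sf2, a sterol C14 reductase, differed by -0.17 ± 0.13 (adjusted p = 0.272), and Msmo1, the C4 methyl oxidase, by -0.15 ± 0.15 (adjusted p = 0.419). Msmo1 was called lower in 1 of 21 alternatives, normexp with quantile normalization. A second Msmo1 probe gave -0.28 (adjusted p = 0.066 over all probes). After quantile normalization that probe was called lower, at -0.45 (adjusted p = 0.012). Ebp, the sterol isomerase, differed by -0.10 ± 0.14 (adjusted p = 0.558) at its brighter probe and by 0.73 at the other (adjusted p = 0.0289 over all probes). Dhcr7, the sterol Δ7 reductase, was not tested because its spots on overexpression arrays 1 and 2 were marked as outliers. It lay at 1.83, 1.87 and 1.83 on the control arrays and at 1.61 on overexpression array 3.

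In all, 5 of the 17 tested synthesis enzymes were called higher, 1 lower and 11 not called (35.3% called, beside 56.5% of all genes, 36.9% higher and 19.6% lower), with a median difference of 0.16 where the median of all tested genes was 0.23. After quantile normalization 3 were called higher and 1 lower, with medians of -0.07 and 0.03. The median of the synthesis enzymes thus lay close to that of all genes at both scalings, and the calls were spread over separate steps of the route.

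**Figure D2:**
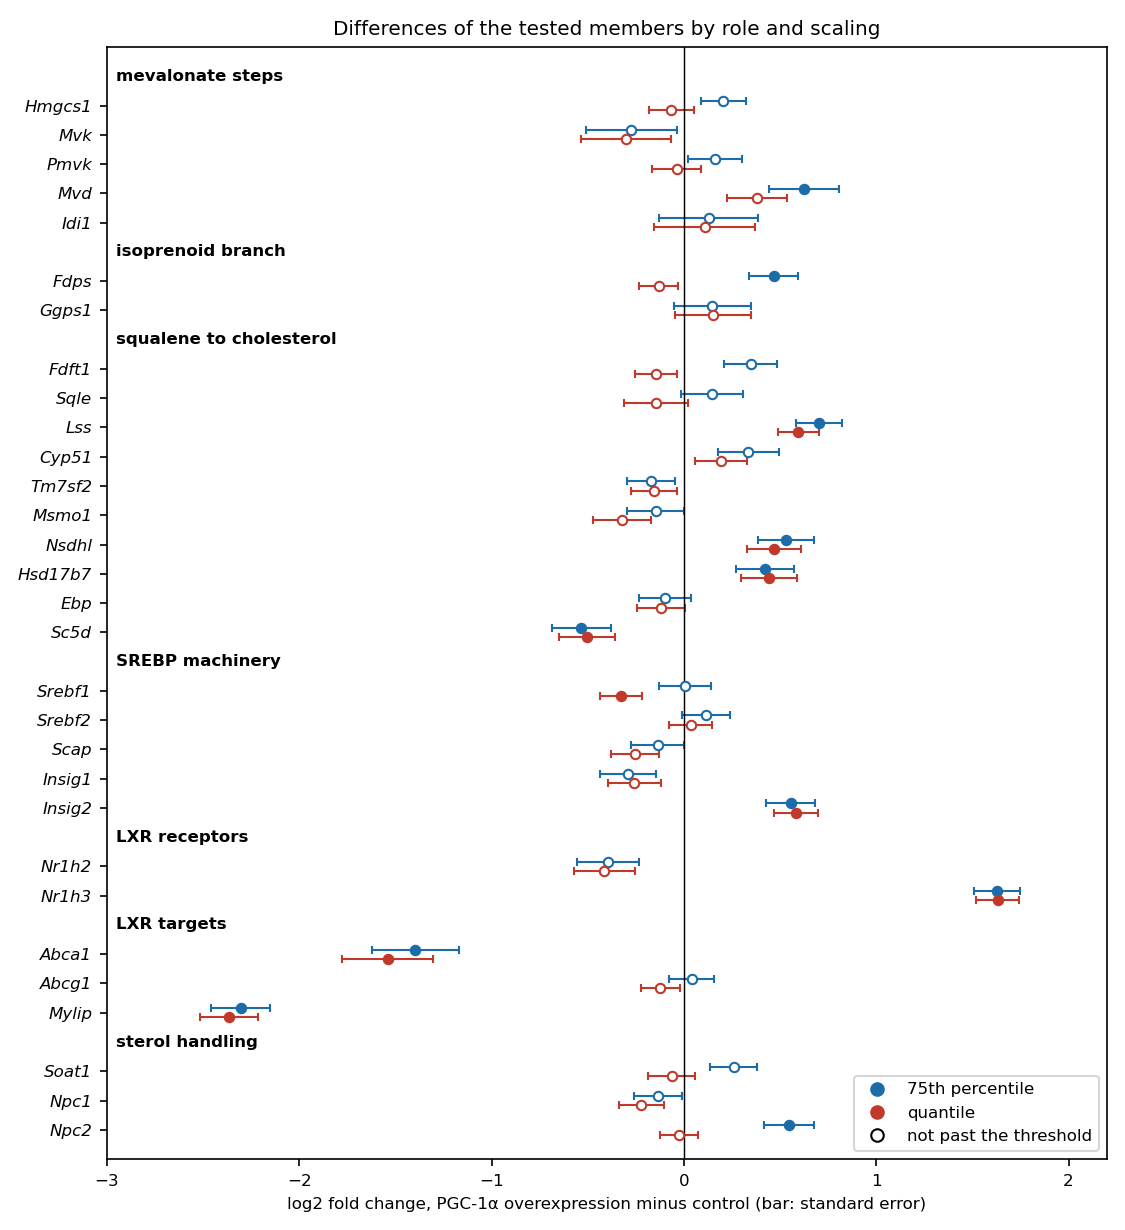
Log2 fold change of overexpression minus control (x axis, bars are standard errors) for the 30 tested members grouped by role, at the 75th percentile scaling (blue) and after quantile normalization (red), with filled points for members past the adjusted p of 0.05. Nr1h3 (1.63), Abca1 (-1.40) and Mylip (-2.30) lie far from 0 at both scalings, and Fdps and Npc2 move to -0.13 and -0.03 with quantile normalization.

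Among the genes of the SREBP machinery, Insig2 was the only one called at the 75th percentile scaling. Insig2, an anchor that retains SCAP in the endoplasmic reticulum, lay at -0.80, -0.91 and -1.0 on the control arrays and at -0.22, -0.44 and -0.38 on the overexpression arrays. The groups did not overlap, and the difference was 0.56 ± 0.13 (1.47-fold, adjusted p = 0.00737), or 0.58 after quantile normalization (adjusted p = 0.0059). Its other 2 probes gave -0.39 and -0.24 and were not called, and the mean of the 3 probes differed by -0.02. The rise of Insig2 thus rests on 1 of 3 probes. Insig1, the related anchor that is itself an SREBP target, lay at -0.93, -1.22 and -1.22 against -1.29, -1.59 and -1.36, without overlap, and its difference of -0.29 ± 0.14 was not called (adjusted p = 0.117).

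Srebf1, which encodes SREBP-1, lay at 2.61, 2.41 and 2.54 on the control arrays and at 2.43, 2.71 and 2.43 on the overexpression arrays. The groups overlapped, with a difference of 0.01 ± 0.13 (adjusted p = 0.969). After quantile normalization it was called lower, at -0.33 ± 0.11 (adjusted p = 0.0414), so its direction depends on the scaling. Genes of its brightness had a median difference of 0.29 at the 75th percentile scaling and of -0.03 after quantile normalization. Srebf2, which encodes the SREBP that drives cholesterol synthesis, differed by 0.12 ± 0.13 (adjusted p = 0.453). Scap differed by -0.14 ± 0.14 (adjusted p = 0.424). For neither gene did the arrays of the groups separate.

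Nr1h3, which encodes LXRα, rose more than any other member. It lay at -2.12, -2.16 and -2.26 on the control arrays and at -0.53, -0.46 and -0.66 on the overexpression arrays. Both groups were tight, with SDs of 0.07 and 0.10, and the difference was 1.63 ± 0.12 (3.09-fold, adjusted p = 7.5e-05). After quantile normalization the difference was again 1.63 (adjusted p = 0.000105). At the 75th percentile scaling it was 1.64 on slide 1 and 1.59 on slide 2, and Nr1h3 was called in all 21 alternatives that gave a test, where the lowest difference was 0.97. A second, dimmer probe of the same transcript lay at -2.78, -3.14 and -3.09 against -2.59, -2.61 and -2.88. It pointed the same way but differed by only 0.31 and was not called (adjusted p = 0.113 over all probes).

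Nr1h2, which encodes LXRβ, lay lower on the overexpression arrays, at 0.08, 0.26 and -0.05, than on the control arrays, at 0.71, 0.54 and 0.22. The groups overlapped slightly. The difference of -0.39 ± 0.16 was not called (adjusted p = 0.0671), but it was called lower in 10 of 21 alternatives, among them the slide as a block (adjusted p = 0.0221). A second probe differed by -0.71 (adjusted p = 0.0282 over all probes). The difference between the changes of Nr1h3 and Nr1h2 was not tested.

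Mylip and Abca1, a pair of LXR targets, fell. Mylip, also called IDOL, marks lipoprotein receptors for degradation. It lay at -1.30, -1.53 and -1.83 on the control arrays and at -3.89, -3.80 and -3.88 on the overexpression arrays. The overexpression arrays lay close together, far below the control arrays. The difference was -2.30 ± 0.15 (0.20-fold, adjusted p = 4.71e-05), or -2.37 after quantile normalization (adjusted p = 7.19e-05). It was the largest fall among the tested members and was called in all 21 alternatives that gave a test, with differences from -2.51 to -1.6. Mylip had 1 probe.

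Abca1, the transporter that loads cholesterol onto apolipoprotein A-I, lay at -3.16, -2.88 and -3.27 on the control arrays and at -4.14, -4.99 and -4.36 on the overexpression arrays. Replicate 2 was the lowest, and every overexpression array lay below every control array. The difference was -1.40 ± 0.22 (0.38-fold, adjusted p = 0.00192), or -1.54 after quantile normalization (adjusted p = 0.00216). It was -1.55 on slide 1 and -1.09 on slide 2. A second, dimmer Abca1 probe lay at -4.72, -4.48 and -5.18 against -5.21, -4.95 and -4.68, where the groups overlapped, with a difference of -0.15 (adjusted p = 0.564 over all probes). The fall was smaller but still called with the mean of both probes (-0.77) and where the background was corrected by normexp before the 75th percentile scaling (-0.62).

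Abcg1, which exports cholesterol to high-density lipoprotein, was not called. It lay at 1.52, 1.43 and 1.38 on the control arrays and at 1.47, 1.56 and 1.42 on the overexpression arrays. The groups overlapped, and the difference was 0.04 ± 0.12 (adjusted p = 0.786), or -0.12 after quantile normalization (adjusted p = 0.365). Over the alternatives it ran from -0.15 to 0.19. Thus 2 of the 3 members listed as LXR targets (Abca1, Abcg1 and Mylip) were called lower and none higher, where 19.6% of all genes were called lower. Srebf1, also an LXR target but listed with the SREBP machinery, was not called at this scaling (0.01, adjusted p = 0.969). It was called lower after quantile normalization, at -0.33 (adjusted p = 0.0414). Of 5 other LXR targets 1 was called higher and 1 lower. The difference between Abcg1 and Abca1 or Mylip was not tested.

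**Figure D3:**
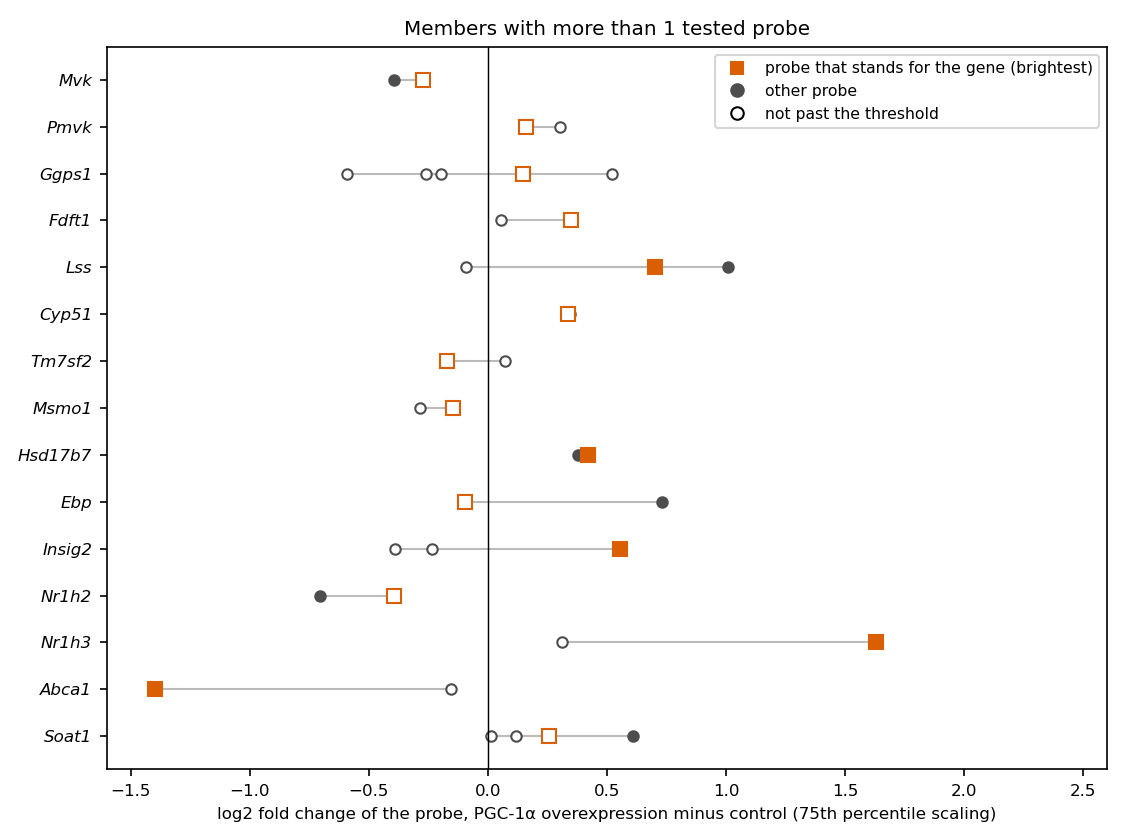
Log2 fold change of each tested probe (x axis, overexpression minus control, 75th percentile scaling) for the 15 members with more than 1 tested probe, with an orange square for the brightest probe, which stands for the gene, grey circles for the others, and filled marks for an adjusted p under 0.05 over all 24558 tested probes. Probes of Nr1h3 (1.63 and 0.31) and Abca1 (-1.40 and -0.15) share a sign but differ in size, and those of Insig2, Lss, Ebp, Ggps1 and Tm7sf2 lie on both sides of 0.

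Sterol handling genes gave no call that held at both scalings. Npc2, the soluble lysosomal protein that passes cholesterol to NPC1, lay at 3.68, 3.75 and 3.75 on the control arrays and at 4.14, 4.46 and 4.22 on the overexpression arrays. The groups did not overlap, and the difference of 0.55 ± 0.13 was called (adjusted p = 0.00903), but genes of this brightness had the same median, 0.55. After quantile normalization Npc2 differed by -0.03 (adjusted p = 0.855). Npc1, the lysosomal membrane transporter, differed by -0.13 ± 0.12 (adjusted p = 0.381). Soat1, which esterifies cholesterol for storage, lay at 2.30, 2.38 and 2.39 against 2.72, 2.5 and 2.62 and differed by 0.26 ± 0.12 (adjusted p = 0.0988), or by -0.06 after quantile normalization. Of its 4 probes, 1 was called, at 0.61 (adjusted p = 0.0236 over all probes), but not after quantile normalization (adjusted p = 0.101).

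Ch25h, the enzyme that adds a hydroxyl group to the side chain of cholesterol and is known to be induced by inflammatory stimuli, was close to the background. It was well above background on 1 control array and 2 overexpression arrays and so did not enter the main test. It lay at -6.95, -7.0 and -6.81 on the control arrays and at -5.62, -5.93 and -6.42 on the overexpression arrays. When dim probes were admitted, its difference was 0.93 (adjusted p = 0.0191), beside a median of 0.56 over tested genes in the dimmest range.

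The difference of all tested genes depended on their level, which bears on the bright members. At the 75th percentile scaling the median difference of all genes was 0.55 for levels above 3, 0.29 between 2 and 3, 0.13 between 1 and 2, -0.02 between 0 and 1, -0.13 between -1 and 0, and -0.11 between -2 and -1. It was 0.28 between -4 and -2 and 0.56 below that. After quantile normalization the medians above a level of -2 lay between -0.10 and -0.02, but the median was 0.19 between -4 and -2 and 0.36 below that. Mvd, Fdps and Npc2 lost their calls under that scaling, and Fdps and Npc2 also changed sign. So did Hmgcs1, Fdft1, Sqle, Soat1, Pmvk and Abcg1, and Srebf1, which was then called lower.

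**Figure D4:**
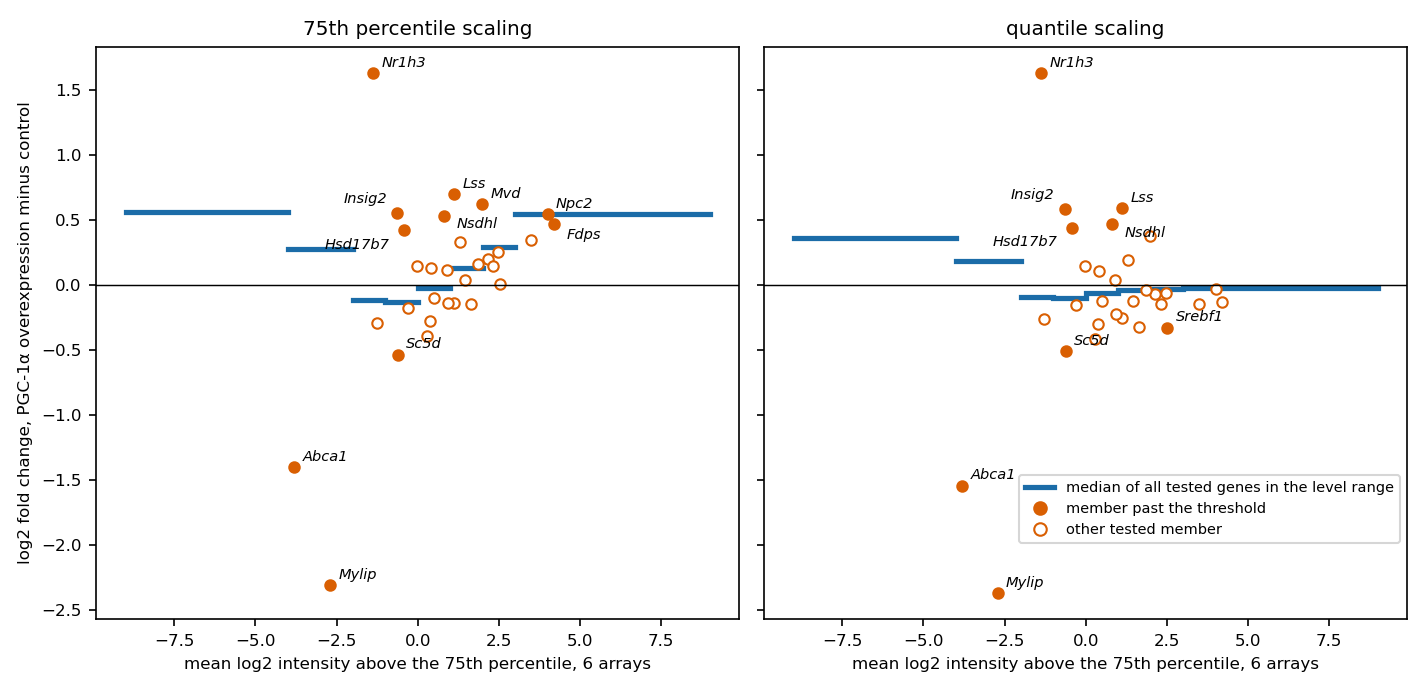
Log2 fold change of overexpression minus control (y axis) against the mean log2 intensity above the 75th percentile over 6 arrays (x axis) for the 30 tested members, with filled circles for those past the adjusted p of 0.05, at the 75th percentile scaling (left) and after quantile normalization (right). Blue lines are medians of all tested genes in each level range, which reach 0.55 for the brightest genes on the left and -0.02 on the right, while Nr1h3, Abca1 and Mylip keep their distance.

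Among 52 further genes of these pathways, 49 were tested, 10 were called higher and 12 lower (44.9%, beside 56.5% of all genes), and 15 of these calls were made in the same direction after quantile normalization. Genes of intracellular sterol transport and ester hydrolysis held 4 calls lower and none higher among 10 tested, with a median of -0.09. They were Nceh1, Osbp, Osbpl2 and Gramd1b. Of all genes, 19.6% were called lower and 36.9% higher. Nceh1, which hydrolyses stored cholesteryl esters, had the largest difference, at 1.97, 1.86 and 1.90 on the control arrays against 0.91, 0.98 and 1.08 on the overexpression arrays. Its difference was -0.92 ± 0.12 (adjusted p = 0.00074), and -1.08 after quantile normalization. Stard4 was not called at the probe that stands for it, at 0.06 (adjusted p = 0.824). A second, dimmer Stard4 probe was called higher at both scalings, at 0.92 (adjusted p = 0.000817 over all probes) and 0.95 after quantile normalization (adjusted p = 0.000835). Second probes of Osbp and Gramd1b were called lower at both scalings.

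Rxra, which encodes the RXRα partner that LXRs need to bind DNA, fell from 2.35, 2.37 and 2.16 to 1.71, 1.89 and 1.61. The difference was -0.56 ± 0.13 (adjusted p = 0.00881), and -0.81 after quantile normalization. A second, dimmer Rxra probe differed by 0.19 and was not called (adjusted p = 0.452 over all probes), so the fall rests on 1 of 2 probes. The corepressor gene Ncor1 was called higher at 0.36 (adjusted p = 0.0444), but differed by 0.0049 after quantile normalization. Other LXR targets gave 1 call in each direction among 5 tested. Smpdl3a, a phosphodiesterase gene, differed by 0.83 (adjusted p = 0.0084, and 0.0441 after quantile normalization) at a level near the background. Arl4c, a small GTPase gene, differed by -0.76 (adjusted p = 0.033) with no value on overexpression array 2, and lost its call after quantile normalization (adjusted p = 0.0512). A second, dimmer Arl4c probe with values on all arrays was called lower at both scalings, at -1.41 (adjusted p = 0.000608 over all probes) and -1.42 after quantile normalization (adjusted p = 0.000752).

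SREBP-1 targets of fatty acid synthesis had 3 calls higher and 2 lower among 10 tested. Me1, malic enzyme, rose by 0.74 (adjusted p = 0.0042) with no value on overexpression array 3, and Elovl6, which elongates palmitate, fell by 0.89 on the log2 scale (adjusted p = 0.00534). Both calls held after quantile normalization. Of 7 genes that cleave SREBPs or turn over INSIG proteins, 1 was called higher and 2 lower. Ube2g2, a ubiquitin-conjugating enzyme, rose by 0.56 (adjusted p = 0.00744), while Mbtps2, the site-2 protease, differed by -0.70 (adjusted p = 0.0449) and lost its call after quantile normalization (adjusted p = 0.0644). A second, dimmer Mbtps2 probe went the other way, at 0.37 (adjusted p = 0.0452 over all probes, and 0.126 after quantile normalization). Mbtps1, the site-1 protease, was not called at the probe that stands for it, at -0.38 (adjusted p = 0.199). A dimmer Mbtps1 probe was called higher at both scalings, at 1.29 (adjusted p = 0.000619 over all probes) and 1.30 after quantile normalization (adjusted p = 0.000737). Its remaining probes gave -0.33 and -0.23 and were not called.

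Oxysterol genes had 1 call in each direction among 3 tested. Hsd3b7, which acts on 7α-hydroxylated sterols, fell from 1.00, 0.97 and 1.04 to 0.47, 0.17 and 0.48, a difference of -0.63 ± 0.13 (adjusted p = 0.00516). Cyp7b1, the oxysterol 7α-hydroxylase, differed by 0.75 (adjusted p = 0.0316) and lost its call after quantile normalization (adjusted p = 0.075). Its level was near the background, in the dimmest range, where tested genes had a median difference of 0.56. Genes that use isoprenoids had 3 calls higher and 1 lower among 9 tested. Nus1 and Dhdds, which encode the subunits of the dolichol-making cis-prenyltransferase, were called in opposite directions, at 0.78 (adjusted p = 0.00161) and -0.59 (adjusted p = 0.0221), and both held after quantile normalization.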

How the data were processed

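Total RNA of LPS-treated BV2 cells was hybridized to 6 Agilent 1-colour mouse arrays, 3 per group, on 2 slides with both groups on each. Labels name Cy3 as the dye, the labelling protocol names Cy5, and the deposited files hold the green channel only. The intensity values were made by the authors with Agilent Feature Extraction 11.5.1.1, background subtracted and not normalized between arrays. A second deposited file, with log2 values that the authors normalized in GeneSpring, served as an alternative.

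Of 56605 probes, 33767 (59.7%) were matched by RefSeq accession to 23462 genes. The log2 intensity minus the 75th percentile of the array over 59305 spots was used. Outlier spots (149 to 1590 per array) were left out and spots of a probe averaged. A probe was tested with values on at least 2 arrays per group and well above background on all 3 arrays of a group. This left 24558 probes of 17062 genes, and 16296 genes had values on all arrays. The contrast was fitted with limma 3.58.1, by lmFit and eBayes in R 4.3.3, as a two-sided test adjusted by the Benjamini-Hochberg method. Python 3.11.15, numpy 2.4.6, pandas 2.3.3 and matplotlib 3.10.9 made the tables and plots.

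The members, gene lists and tests were chosen with earlier results of these data known. All 33 members are described, and of the other lists the called gene with the largest positive and the one with the largest negative difference. Correlations between arrays of a group were 0.9874 to 0.9954. The number of arrays limits the precision. Alternatives were other scalings, normexp with an offset of 50, probe filters, averaged probes, the authors' values, slide or replicate number as a block, each slide by itself, a variance trend with robust estimation, arrays left out in turn, and a log2 fold change of at least 1.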

Additional observations from a re-analysis of the deposited data

How the results depend on the processing

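Of the 11 called members, Lss, Nr1h3, Abca1 and Mylip were called in the same direction in every alternative that gave a test at the adjusted p alone, and with a log2 fold change of 1 or more also required Lss lost its call. Synthesis genes called higher numbered 5 and became 3 with quantile normalization or the authors' log2 values, 2 with the median of the array, with normexp and quantile normalization, with quantile normalization and slide 1 only, and with quantile normalization and the replicate block, 8 with the median of the tested genes set to 0, and 0 where a log2 fold change of 1 or more was also required. With arrays left out they numbered 3 to 5, 3 without control replicate 2 or control replicate 3. The 1 synthesis gene called lower became 0 with the median of the tested genes set to 0 or a fold threshold, 2 with normexp and quantile normalization, and 0 to 1 with arrays left out, 0 without control replicate 1 or control replicate 2. Regulator and transport genes called lower numbered 2, and 4 with normexp and quantile normalization, and those called higher 3, and 1 with the fold threshold, which also left 2430 of 9633 calls over all genes. The median of the synthesis genes minus that of all genes was -0.07, and -0.18 with no filter on dim probes and -0.13 to 0.09 with arrays left out, above 0 without control replicate 3 (0.09) or PGC-1α overexpression replicate 2 (0.05) and with the mean of the probes (0.02). For the regulator and transport genes it was -0.22, and -0.30 with normexp and the 75th percentile, -0.32 with no filter, -0.30 on slide 1 and -0.14 on slide 2 with quantile normalization. Quantile normalization on each slide or with the replicate block was chosen after seeing the data, and slide 2, with 1 array per group, gives differences but no test. The cause of these changes was not tested, except that a fold threshold leaves fewer calls by construction.

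Directions changed as follows, with values under quantile normalization, normexp and quantile normalization, the authors' log2 values, quantile normalization on slide 1, the same on slide 2 and quantile normalization with the replicate block, in that order. Hmgcs1 was at -0.07, -0.10, -0.06, -0.15 and, with the block, -0.07. Pmvk was at -0.04, -0.03, -0.02, -0.0020, -0.04 and -0.04. Fdps was at -0.13, -0.17, -0.13, -0.12, -0.15 and -0.13. Fdft1 was at -0.14, -0.17, -0.14, -0.19, -0.06 and -0.14. Sqle was at -0.14, -0.13, -0.14, -0.05, -0.33 and -0.14, and at -0.06 on slide 2 alone. Srebf1 was at -0.33, -0.35, -0.32, -0.30, -0.37 and -0.33, at -0.10 with the median of the array, -0.04 with normexp and the 75th percentile and -0.10 on slide 2 alone. Abcg1 was at -0.12, -0.14, -0.11, -0.15, -0.07 and -0.12, and at -0.07 with the median of the array. Soat1 was at -0.06, -0.07, -0.06, -0.08, -0.04 and -0.06. Npc2 was at -0.03, -0.07, -0.02, -0.04 and, with the block, -0.03. Setting the median of the tested genes to 0 turned Msmo1 (0.0000), Ebp (0.05), Scap (0.01) and Npc1 (0.01). The mean of the probes turned Ggps1 (-0.08), Ebp (0.32) and Insig2 (-0.02). Idi1 was at -0.02 with normexp and quantile normalization, and Srebf2 at -0.04 with quantile normalization on slide 2.

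Same-numbered arrays of the groups had deviations that correlated at -0.16, 0.07 and 0.60, and 2 of the 6 arrays correlated best with their own number. With 3 arrays per group this check cannot decide whether the numbers pair the samples. The arrays numbered 3 were also the only ones on slide 2, so pairing and slide cannot be told apart there. With the replicate block 10561 genes were called, with 5 synthesis genes higher and 1 lower, 3 regulator and transport genes higher and 3 lower, and medians of -0.08 and -0.22 beside those of all genes. With arrays left out in turn, 3 members that were not called changed direction, Idi1 from -0.07 to 0.35, Ggps1 from -0.04 to 0.30 and Srebf1 from -0.09 to 0.05.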
